A study of Homo sapiens with 6 samples.

Results

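The RNA of 10 histone lysine demethylases outside the KDM3 family (KDM1A, KDM2A, KDM2B, KDM4A, KDM4B, KDM4C, KDM5B, KDM5C, KDM6B and PHF8) was examined in LN-229, a human cell line established from a glioblastoma. The genes were taken by symbol, each matched 1 Ensembl gene ID, and they are 10 of the 58174 genes in each deposited table. Nuclear-enriched, ribosome-depleted RNA was sequenced from 3 libraries named sh-JMJD1C, a short hairpin knockdown of JMJD1C if the name is read as is customary (JMJD1C encodes an H3K9 demethylase), and from 3 libraries named control-NC. The labels give neither the hairpin sequence, its delivery and the time after it, nor what the control carries. They do not say which libraries are separate cultures, so p-values measure only the spread between these libraries. In such bulk RNA, fewer cells that express a gene and less of its RNA per cell cannot be told apart.

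Histone lysine demethylases remove methyl groups from lysines of histone tails and so erase marks that methyltransferases write. KDM1A (LSD1) is a flavin-dependent amine oxidase, whereas the other 9 genes encode JmjC-domain enzymes, which use iron and 2-oxoglutarate. Their targets differ: KDM1A and the KDM5 enzymes act on H3K4, a mark of enhancers and promoters, the KDM2 enzymes on H3K36, the KDM4 enzymes on H3K9 and H3K36, KDM6B on H3K27 and PHF8 on H3K9. JMJD1C belongs to the KDM3 family of the same JmjC class, and the comparison asks whether the RNA of its relatives differed in the libraries labelled as its knockdown.

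The libraries held 1676755, 1919675 and 1660561 reads in sh-JMJD1C 1 to 3 and 544442, 2004255 and 2960454 reads in control-NC 1 to 3, and a count of 0 reads allows up to 1.81 RPM (reads per 1000000 library reads) in the sh-JMJD1C libraries and up to 5.51 RPM in the control-NC libraries. JMJD1C itself had 45.3, 8.33 and 24.1 RPM in sh-JMJD1C 1 to 3, against 145, 114 and 236 RPM in control-NC 1 to 3, and was thus lower in every library labelled as its knockdown. Its log2 fold change was -2.50 in limma-voom on reads (adjusted p = 0.0254) and -1.82 in limma on FPKM, where it was not called (adjusted p = 0.118). The call on reads was lost without sh-JMJD1C 2 (0.118), sh-JMJD1C 3 (0.0633), control-NC 1 (0.101) or control-NC 3 (0.0952). Library makeup differed within and between groups. The share of reads on RN7SL, the RNA core of the signal recognition particle, was 1.18% in sh-JMJD1C 1 and 15.7% and 18.5% in sh-JMJD1C 2 and 3, against 0.378% to 1.77% in the control-NC libraries. The nuclear RNA MALAT1 held 0.0915% to 0.292% of the reads of the sh-JMJD1C libraries, against 1.25% to 2.40% in the control-NC libraries, and the part of such differences in the results was not tested. A single gene took 25% of the reads of control-NC 1, the shallowest library. Sh-JMJD1C 1 and control-NC 1 therefore stand apart from their groups, and results are given with and without them where they matter. Of the glioblastoma markers, VIM and CD44 had at least 113 reads in every library, while NES had 2 to 20, GFAP 0 to 6, SOX2 0 to 1 and OLIG2 0 reads. Markers of leukocytes, endothelium, neurons and epithelium (PTPRC, PECAM1, RBFOX3 and EPCAM) had 0 to 5 reads in the sh-JMJD1C libraries and 0 to 11 in the control-NC libraries.

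None of the 10 demethylases changed between the groups past an adjusted p of 0.05. All 10 passed the filters of both fits. In limma on log2(scaled FPKM + 0.5), where FPKM (fragment counts per transcript length and library total) were divided by a median-ratio factor per library, 0 of 10 were called and 0 had an unadjusted p under 0.05, beside 0.185% called and 19.9% at that unadjusted p over all 18383 genes tested. In limma-voom on whole reads recovered from the FPKM, 0 of 10 were called and 0 had an unadjusted p under 0.05 as well, beside 5.52% and 30.8% of all 11848 genes. At the shares called, 0 of 10 is no result about the demethylases as a set. The shares at an unadjusted p under 0.05 were larger, and 0 of 10 was not tested against them. In the FPKM fit 6 of the 10 log2 fold changes were above 0, with a median of 0.10 beside -0.16 over all genes. The median absolute log2 fold change was 0.38 for the 10 on reads, against 0.77 over all genes and 0.74 over the 4608 genes with as many reads in total (310 to 1315). With the length trend removed these medians were close, 0.56 for the 10 and 0.67 over all genes, and with the length and GC trends removed they were 0.41 and 0.54. In those 2 fits, 9 and 8 of the 10 log2 fold changes were above 0, with signed medians of 0.56 and 0.41. Over all genes, 49.1% and 49.5% were above 0. With library totals 4 of the 10 were above 0 on reads, beside 33.4% of all genes, so the count depends on the processing. This is a description of these libraries, with no test of the difference.

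The intervals show what the data leave possible. In the FPKM fit, where the pseudocount narrows the fold of low genes, the 95% intervals of the fold ran from 0.911 to 2.45 for KDM1A, the narrowest on the log scale, and from 0.521 to 2.90 for KDM6B, the widest. A doubling lay inside the interval of KDM1A, KDM4B, KDM5C and KDM6B, and a fall to 0.5 of the control-NC level lay inside that of KDM2A, KDM4C, KDM5B and PHF8. For KDM2B (0.649 to 1.88) and KDM4A (0.589 to 1.83), neither lay inside in that fit, but on reads the interval of KDM2B reached 2.12, and with the trend of the reads over transcript length removed the intervals were 1.04 to 3.19 for KDM2B and 0.724 to 2.15 for KDM4A. With that trend removed, the intervals of KDM4B (1.22 to 3.78) and KDM5C (1.09 to 3.51) lay above 1 as well. There, 3106 of all 11848 genes had an unadjusted p under 0.05 in limma-voom. On the FPKM scale the interval of JMJD1C ran from 0.144 to 0.553. None of the 10 was called in any of the 31 fits run, 10 of which called 0 of all genes.

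**Figure D1:**
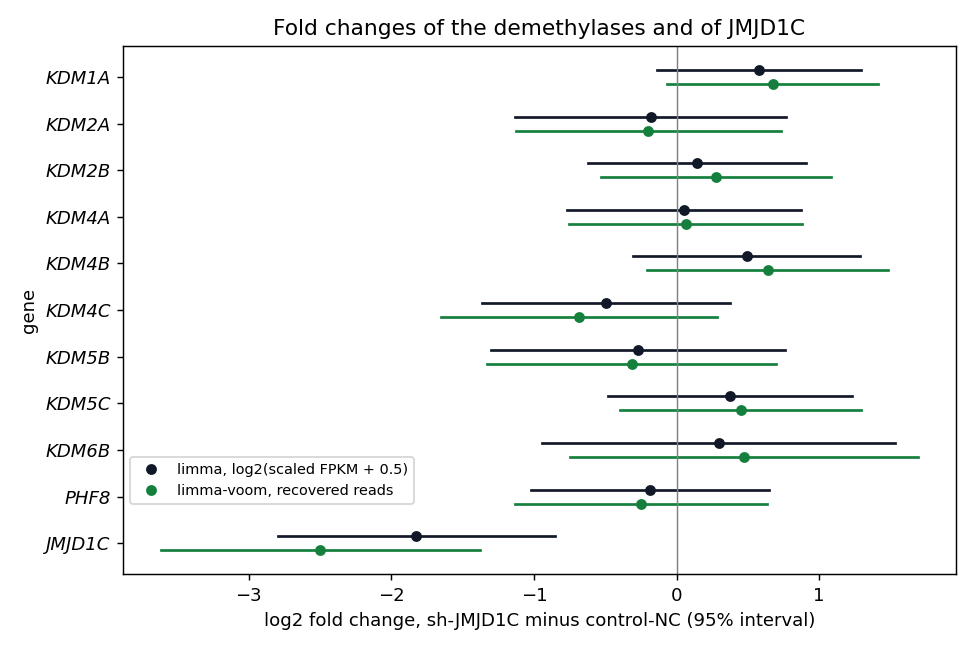
Log2 fold change (sh-JMJD1C minus control-NC, x axis) of each demethylase and of JMJD1C (y axis), as points with 95% intervals, in limma on log2(scaled FPKM + 0.5) in black and limma-voom on recovered reads in green. The intervals of all 10 demethylases cross 0 in both fits, and those of JMJD1C lie below 0.

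Levels between genes were set side by side as scaled RPM (reads divided by a median-ratio library size) per kilobase of the longest annotated transcript. KDM1A was highest, with a median of 40.3 over the 6 libraries and a range of 26.5 to 49.3, and its lowest library lay above every library of the other 9 genes. That separation depends on the length used: in scaled FPKM, KDM1A ranged from 7.53 to 13.6 and KDM4A, there the next gene, from 5.80 to 10.2. KDM5C followed at a median of 17.0 (9.80 to 23.1), then KDM2A at 12.6, KDM4A at 12.3, KDM4B at 7.73, PHF8 at 6.86, KDM4C at 6.33, KDM5B at 6.23, KDM2B at 5.80 and KDM6B at 5.35. From KDM2A downward, each gene's range overlapped that of the gene above it, so below KDM1A the order of neighbours is not separated beyond their spread. Together the 10 genes took 0.0912%, 0.0486% and 0.0497% of reads in sh-JMJD1C 1 to 3 and 0.0454%, 0.0859% and 0.0767% in control-NC 1 to 3. The group means were 0.0632% ± 0.0243 in the sh-JMJD1C libraries and 0.0693% ± 0.0213 in the control-NC libraries (SD, n = 3 each), which differ by less than the spread within either group.

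**Figure D2:**
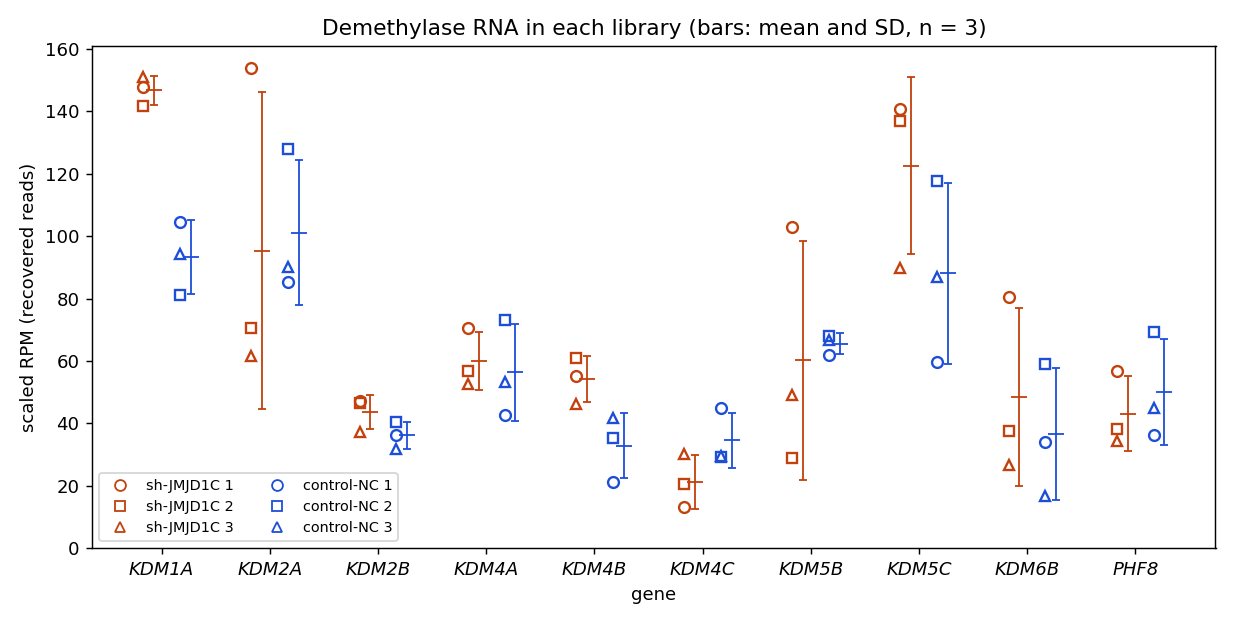
Scaled RPM (y axis, linear from 0) of each of the 10 demethylases (x axis) in the 3 sh-JMJD1C libraries (orange, left) and the 3 control-NC libraries (blue, right), with bars for mean and SD. KDM1A and KDM4B lie higher in all sh-JMJD1C libraries than in all control-NC libraries, and sh-JMJD1C 1 lies far above sh-JMJD1C 2 and 3 for KDM2A, KDM5B and KDM6B.

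Demethylases of H3K4 were KDM1A, KDM5B and KDM5C. KDM1A (ENSG00000004487, chromosome 1, 23019443 to 23083689, plus strand) erases mono- and dimethyl H3K4 as the catalytic subunit of the CoREST complex. It had 148, 142 and 151 scaled RPM in sh-JMJD1C 1 to 3, against 105, 81.0 and 94.3 in control-NC 1 to 3. Every sh-JMJD1C library was above every control-NC library, and the spread was narrow in both groups, 147 ± 4.64 in sh-JMJD1C and 93.3 ± 11.8 in control-NC (SD, n = 3 each). The log2 fold change was 0.58 (SE 0.30, adjusted p = 0.319) in limma on FPKM and 0.67 (SE 0.34, adjusted p = 0.196) in limma-voom on reads. It was above 0 in all 31 fits, between 0.29 and 0.74. The separation of the groups depends on scaling: before scaling, KDM1A had 155, 108 and 129 RPM in sh-JMJD1C 1 to 3 and 90, 99.3 and 130 RPM in control-NC 1 to 3, which overlap. Scaling moved the median log2 fold change of all genes as well, to -0.08 on scaled reads, against -0.52 with library totals. On scaled reads, the groups did not overlap for 2 of the 10 genes, both higher in sh-JMJD1C (KDM1A and KDM4B), beside 17.3% of all genes with sh-JMJD1C higher and 17.2% with it lower. On scaled FPKM there were 2 higher and 1 lower (KDM4C), beside 12.2% and 14.5% of all genes. With 10 genes, these counts are near the background shares. KDM1A had the largest absolute fold of the 10 in the FPKM fit, and the 3 protein-coding genes whose log2 levels ran most like it over the 6 libraries were ITFG2 (Pearson r = 0.985), the mitochondrial channel gene VDAC1 (0.977) and the cytosolic HSP90 gene HSP90AB1 (0.967), the highest of 8196 genes compared, as a description.

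KDM5B (ENSG00000117139, chromosome 1, 202724495 to 202809470, minus strand), which erases di- and trimethyl H3K4, gave the clearest split within a group. It had 103, 28.8 and 49.1 scaled RPM in sh-JMJD1C 1 to 3, against 61.9, 68.0 and 66.9 in control-NC 1 to 3. The control-NC libraries were nearly level, while sh-JMJD1C 1 was above and sh-JMJD1C 2 and 3 below all of them. The log2 fold change was -0.27 (SE 0.43, adjusted p = 0.733 in limma on FPKM), and without sh-JMJD1C 1 it was -0.66 (adjusted p = 0.297). On reads without sh-JMJD1C 1 it was -0.80 (adjusted p = 0.158 in limma-voom). The sign is not stable, since removing the length trend gave 0.51, and the longest annotated transcript of KDM5B, 10341 nucleotides, is the longest among the 10 genes. KDM5C (ENSG00000126012, chromosome X, 53191321 to 53225422, minus strand), with the same substrate, had 141, 137 and 89.8 scaled RPM in sh-JMJD1C 1 to 3 and 59.7, 118 and 86.9 in control-NC 1 to 3. The groups overlapped, and its log2 fold change was 0.38 (SE 0.36, adjusted p = 0.559 in limma on FPKM). The KDM5B/KDM5C log2 ratio within a library was -0.60 ± 0.74 in sh-JMJD1C and 0.05 ± 0.35 in control-NC (SD, n = 3 each), and a two-sided exact permutation test gave p = 0.20 (adjusted p = 0.40 over 6 pairs of genes).

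The KDM4 enzymes erase trimethyl H3K9 and H3K36, and their 3 members ran in different directions without passing a test. KDM4A (ENSG00000066135, chromosome 1, 43650158 to 43705515, plus strand) had 70.4, 56.8 and 52.6 scaled RPM in sh-JMJD1C 1 to 3 and 42.7, 73.3 and 53.1 in control-NC 1 to 3. Its groups overlapped fully, with 0.06 as log2 fold change in limma on FPKM (SE 0.35, adjusted p = 0.940). KDM4B (ENSG00000127663, chromosome 19, 4969113 to 5153595, plus strand) had 55.1, 61.0 and 46.3 scaled RPM in sh-JMJD1C 1 to 3, against 21.3, 35.4 and 41.9 in control-NC 1 to 3. Every sh-JMJD1C library was above every control-NC library, with means of 54.1 ± 7.36 in sh-JMJD1C and 32.9 ± 10.5 in control-NC (SD, n = 3 each). As for KDM1A, this holds only after scaling: unscaled, KDM4B had 57.9, 46.4 and 39.7 RPM in sh-JMJD1C 1 to 3 and 18.4, 43.4 and 57.8 RPM in control-NC 1 to 3, which overlap, and its log2 fold change with library totals was 0.27. The lowest value, in control-NC 1, rests on 10 reads. The log2 fold change was 0.49 (SE 0.34, adjusted p = 0.438) in limma on FPKM and 0.64 (SE 0.39, adjusted p = 0.273) in limma-voom on reads, and it was above 0 in all 31 fits, up to 1.1 once the length trend was removed (adjusted p = 0.0998).

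KDM4C (ENSG00000107077, chromosome 9, 6720863 to 7175648, plus strand) was the only gene of the 10 whose log2 fold change was below 0 in every fit that tested it (30 fits, -1.11 to -0.08). Before scaling it had 13.7, 15.6 and 25.9 RPM in sh-JMJD1C 1 to 3, from 23, 30 and 43 reads, against 38.6, 35.9 and 40.9 RPM in control-NC 1 to 3, from 21, 72 and 121 reads. On that scale every sh-JMJD1C library was below every control-NC library. In scaled RPM the groups met: sh-JMJD1C 3 had 30.2, above the 29.3 of control-NC 2. In scaled FPKM they stayed barely apart, with 0.976 in sh-JMJD1C 3 and 0.978 in control-NC 2. The log2 fold change was -0.50 (SE 0.37, adjusted p = 0.476) in limma on FPKM and -0.69 (SE 0.44, adjusted p = 0.304) in limma-voom on reads.

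The promoters of KDM4B and KDM4C are shown because these paralogs lay on opposite sides of 0. Both are RefSeq sequences (GRCh38.p14) of 250 bases before to 50 after an annotated start, KDM4B at chr19:4968863-4969162 and KDM4C at chr9:6757723-6758022, both on the plus strand. Capitals mark 3 motifs searched on both strands. The GC box was searched as GGGCGG and, for the other strand, as CCGCCC. The CCAAT box was likewise searched as CCAAT and, on the other strand, as ATTGG. The E-box is the palindrome CACGTG.
KDM4B: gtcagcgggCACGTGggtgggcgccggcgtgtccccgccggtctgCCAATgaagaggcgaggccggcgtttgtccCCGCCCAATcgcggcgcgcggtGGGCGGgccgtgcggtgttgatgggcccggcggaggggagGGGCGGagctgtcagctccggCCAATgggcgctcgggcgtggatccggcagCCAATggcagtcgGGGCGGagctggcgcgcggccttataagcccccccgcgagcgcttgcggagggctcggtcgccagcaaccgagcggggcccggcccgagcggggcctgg
KDM4C: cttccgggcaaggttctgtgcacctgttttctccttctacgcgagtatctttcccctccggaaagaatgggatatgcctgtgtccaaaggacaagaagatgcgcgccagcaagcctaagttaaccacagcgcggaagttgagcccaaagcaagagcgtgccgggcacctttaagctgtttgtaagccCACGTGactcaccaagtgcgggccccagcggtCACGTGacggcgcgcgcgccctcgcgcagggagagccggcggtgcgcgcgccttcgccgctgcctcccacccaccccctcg
The KDM4B window holds 4 GC boxes, 4 CCAAT boxes and 1 E-box, with 1 overlap between a GC box and a CCAAT box, and 43 CpG dinucleotides. The KDM4C window holds 0 GC boxes, 0 CCAAT boxes and 2 E-boxes, and 29 CpG dinucleotides. Of the 35116 promoters in the same table, 45.0% hold a GC box, 34.6% a CCAAT box and 7.26% this E-box. These matches are a description of the sequences and of no factor's binding.

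The ratio of KDM4B to KDM4C reads within a library does not depend on library scaling. KDM4B had 4.22, 2.97 and 1.53 times the reads of KDM4C in sh-JMJD1C 1 to 3, against 0.476, 1.21 and 1.41 times in control-NC 1 to 3. The log2 ratio of scaled FPKM + 0.5 was 0.84 ± 0.45 in sh-JMJD1C and -0.15 ± 0.56 in control-NC (SD, n = 3 each), a difference of 0.99. With the pseudocount added, this log2 ratio does depend on scaling, and the difference was 1.37 with a pseudocount of 0.1 and 0.74 with 1. The groups did not overlap, and the two-sided exact permutation test gave p = 0.10, the smallest that 3 libraries against 3 allow, and 0.40 adjusted over the 6 pairs. The gap was narrow between sh-JMJD1C 3 and control-NC 3 (0.33 and 0.25) and wide between the libraries numbered 1 (1.21 and -0.79). In the other pairs the groups overlapped: the KDM4A/KDM4B log2 ratio was 2.03 ± 0.21 in sh-JMJD1C and 2.47 ± 0.30 in control-NC (exact permutation p = 0.20), KDM4A/KDM4C was 2.87 ± 0.55 and 2.32 ± 0.59 (exact permutation p = 0.50), and KDM1A/KDM6B was 1.98 ± 0.71 and 1.70 ± 0.85 (exact permutation p = 0.60), with sh-JMJD1C given first in each and n = 3 per group.

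**Figure D3:**
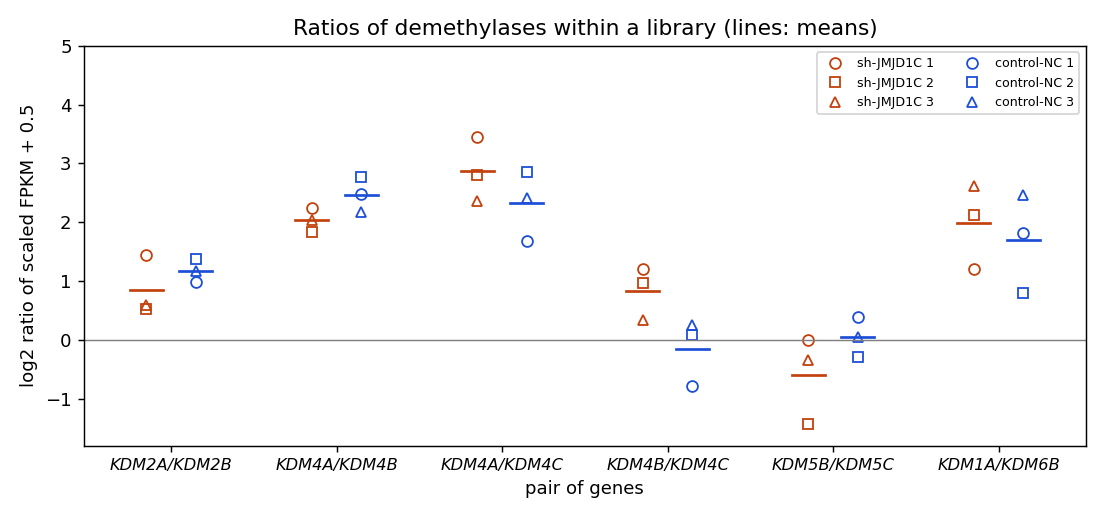
Log2 ratio of scaled FPKM + 0.5 (y axis) between 2 demethylases in the same library, for 6 pairs (x axis), with the 3 sh-JMJD1C libraries in orange on the left, the 3 control-NC libraries in blue on the right and lines at the group means. The KDM4B/KDM4C ratio is the pair whose groups do not overlap, with group means of 0.84 in sh-JMJD1C and -0.15 in control-NC.

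The KDM2 enzymes erase mono- and dimethyl H3K36 and bind unmethylated CpG through a CXXC zinc finger. KDM2A (ENSG00000173120, chromosome 11, 67119269 to 67258087, plus strand) had 154, 70.5 and 61.8 scaled RPM in sh-JMJD1C 1 to 3, against 85.4, 128 and 90.1 in control-NC 1 to 3. Sh-JMJD1C 1 was the highest of the 6 libraries and sh-JMJD1C 2 and 3 were the lowest. The log2 fold change was -0.18 (SE 0.40, adjusted p = 0.811 in limma on FPKM), and -0.68 (adjusted p = 0.342) without both libraries numbered 1. KDM2B (ENSG00000089094, chromosome 12, 121429097 to 121581015, minus strand), which also recruits the Polycomb complex PRC1.1 to CpG islands, varied little within either group. It had 47.1, 46.6 and 37.2 scaled RPM in sh-JMJD1C 1 to 3 and 36.3, 40.3 and 31.8 in control-NC 1 to 3. The groups overlapped, and the log2 fold change was 0.14 (SE 0.32, adjusted p = 0.817 in limma on FPKM). The KDM2A/KDM2B log2 ratio was 0.85 ± 0.52 in sh-JMJD1C and 1.17 ± 0.20 in control-NC (SD, n = 3 each, exact permutation p = 0.40).

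KDM6B (ENSG00000132510, chromosome 17, 7839904 to 7854796, plus strand), an H3K27 demethylase known to be induced by inflammatory and stress signals, had the largest SE of the 10 genes in both fits. It had 80.7, 37.7 and 26.7 scaled RPM in sh-JMJD1C 1 to 3 and 34.1, 59.0 and 16.9 in control-NC 1 to 3. The highest library of each group had over 3 times the level of the lowest, and the groups overlapped, with 0.30 as log2 fold change in limma on FPKM (SE 0.52, adjusted p = 0.759). PHF8 (ENSG00000172943, chromosome X, 53936676 to 54048958, minus strand), which binds trimethyl H3K4 by a PHD finger and erases dimethyl H3K9, had 56.8, 38.4 and 34.4 scaled RPM in sh-JMJD1C 1 to 3 and 36.3, 69.2 and 44.8 in control-NC 1 to 3. Its groups overlapped as well, with -0.19 as log2 fold change in limma on FPKM (SE 0.35, adjusted p = 0.776).

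Sh-JMJD1C 1 differed from the rest of its group for some of the demethylases. In 7 of the 10 genes, KDM2B and KDM5C by little, it was above both sh-JMJD1C 2 and sh-JMJD1C 3 in scaled RPM, an order seen in 35.2% of all genes with at least 60 reads. KDM4C was lowest there. The differences were beyond counting error for several genes before scaling: KDM5B had 108 RPM (exact 95% binomial interval 92.8 to 125) in sh-JMJD1C 1, against 21.9 (15.8 to 29.6) in sh-JMJD1C 2 and 42.2 (32.9 to 53.3) in sh-JMJD1C 3. KDM6B had 84.7 RPM (71.3 to 99.8) in sh-JMJD1C 1 and 28.7 (21.6 to 37.3) and 22.9 (16.2 to 31.4) in sh-JMJD1C 2 and 3. The RN7SL share runs the opposite way in these libraries, as given above, and the mitochondrial share runs the same way, 12.6% in sh-JMJD1C 1 and 1.33% and 1.70% in sh-JMJD1C 2 and 3, against 7.04%, 8.70% and 2.93% in control-NC 1 to 3. The part of either in the result was not tested. Control-NC 1 had fewer RPM than control-NC 2 and 3 for 8 of the 10 genes (all but KDM4C and KDM6B) before scaling and for 6 after it. The share of all genes with this order was not computed, so these counts show nothing particular to the demethylases. Without both libraries numbered 1, the log2 fold change was -0.68 for KDM2A, -0.77 for KDM5B, -0.56 for PHF8 and 0.58 for KDM1A in limma on FPKM, with adjusted p from 0.287 to 0.452 for these 4 genes.

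**Figure D4:**
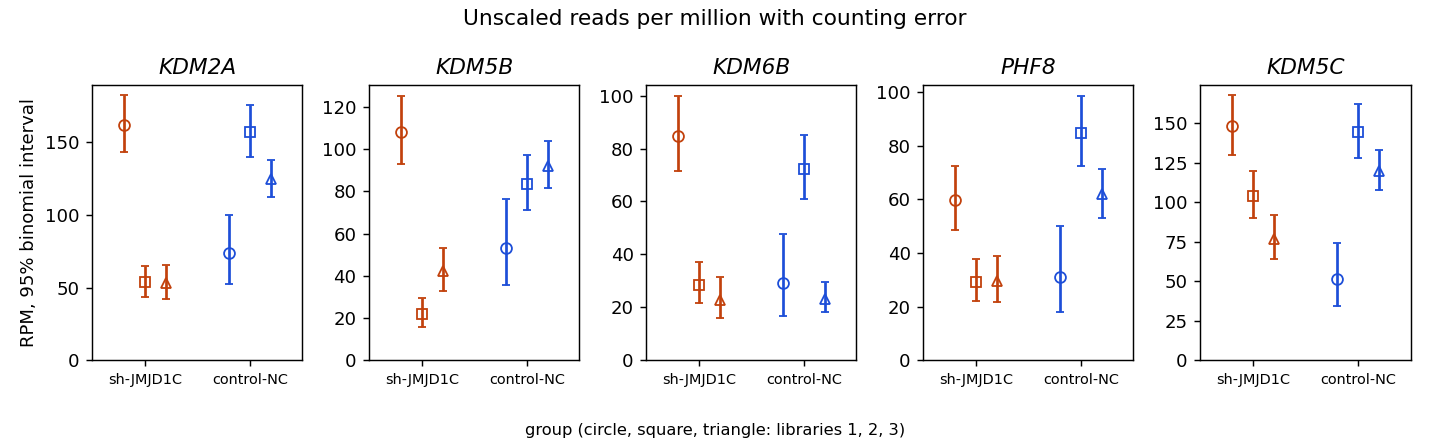
RPM before scaling (y axis, linear from 0, 1 panel per gene) of KDM2A, KDM5B, KDM6B, PHF8 and KDM5C in the sh-JMJD1C libraries (orange, left) and the control-NC libraries (blue, right), with exact 95% binomial intervals for counting error; circle, square and triangle are libraries 1, 2 and 3. Sh-JMJD1C 1 lies above sh-JMJD1C 2 and 3 in all 5 panels, and control-NC 1 lies below control-NC 2 in all 5.

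Among 15 other lysine demethylases, 12 were tested in each fit, and 0 were called in limma on FPKM. On reads, HR rose, JMJD1C, the gene named in the labels, fell and 10 did not pass, beside 5.52% called over all genes. The median log2 fold change of the list was -0.75 (-0.44 with the length trend removed), beside -0.08 over all genes. HR, the hairless gene, encodes a JmjC corepressor related to the KDM3 enzymes. It had 130 ± 61.0 scaled RPM in sh-JMJD1C and 33.6 ± 12.9 in control-NC (SD, n = 3 each), 1.91 as log2 fold change in limma-voom (SE 0.48, adjusted p = 0.0428). That call was lost without sh-JMJD1C 2, control-NC 1 or control-NC 3 (adjusted p = 0.157, 0.129 and 0.179, by library), or without both libraries numbered 1 (1.61, adjusted p = 0.115), or with library totals in place of scaling (1.49, adjusted p = 0.0655). KDM4D, KDM4E and KDM8 were below the depth of both fits. RIOX2, chosen after its values were seen, was at -1.71 on reads and was not called (adjusted p = 0.0598 in limma-voom). It was called lower with library totals (adjusted p = 0.0254), the replicate number as a block (0.00419), without sh-JMJD1C 1 (0.0277) and without control-NC 2 (0.0437). Those fits called 10.1%, 35.9%, 19.7% and 10.8% of all genes, in that order. RIOX2 was not alone: of the 12 tested, the block fit called 1 higher (HR) and 5 lower. The 5 were JMJD1C, RIOX2, KDM3A (adjusted p = 0.0108 in limma-voom), KDM6A (0.0207) and PHF2 (0.0467).

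Methyltransferases that write the marks these enzymes erase were described as fixed lists. On reads, 0 of 6 H3K4 methyltransferases were called (median log2 fold change -0.98), 1 of 5 for H3K36 (median -1.25), 0 of 2 for H3K27 (median -0.999) and 0 of 5 for H3K9 (median 0.34), beside a median of -0.08 and 5.52% called over all genes. With so few genes a list, counts of 0 or 1 are near that share. NSD3, an H3K36 methyltransferase, fell to 46.8 ± 11.2 scaled RPM in sh-JMJD1C, against 153 ± 46.9 in control-NC (SD, n = 3 each; limma-voom log2 fold change -1.66, adjusted p = 0.0391), and this was not called once the length trend was removed (-0.82, adjusted p = 0.156), nor without sh-JMJD1C 2 (0.172), sh-JMJD1C 3 (0.0936), control-NC 1 (0.147) or control-NC 3 (0.130). With the length trend removed, the median was -0.07 for the H3K4 list, -0.54 for the H3K36 list, -0.81 for the H3K27 list and 0.85 for the H3K9 list, and 0 genes of the 4 lists were called, beside 3.42% of all genes. Without sh-JMJD1C 1, 3 of 6 genes of the H3K4 list and 4 of 5 of the H3K36 list were called, all lower in sh-JMJD1C, beside 19.7% of all genes. Without both libraries numbered 1, these counts were 0 and 1, beside 7.53% of all genes. Genes with the largest fold in the lists without a call were KMT2A (-1.25, adjusted p = 0.0964), EZH1 (-1.12, adjusted p = 0.0966) and SUV39H1 (1.20, adjusted p = 0.0917, all in limma-voom on reads). KMT2A was at -0.21 (adjusted p = 0.742) with the length trend removed and at -1.72 (adjusted p = 0.00817) without sh-JMJD1C 1, where it was called, as it was with library totals (-1.61, adjusted p = 0.0478) and after quantile normalization (-1.62, adjusted p = 0.0461). Library totals called 3 of 5 H3K36 genes lower, beside 10.1% of all genes. With the replicate number as a block, 4 of 6 H3K4, 4 of 5 H3K36 and 2 of 2 H3K27 genes were called lower, beside 35.9% of all genes. KMT2A (adjusted p = 0.0121 in limma-voom) and EZH1 (0.0225) were among them, and SUV39H1 was called higher (0.013).

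Partner subunits were not called in either of the 2 fits with all libraries and group alone. Of 12 CoREST partners of KDM1A, 10 were tested on reads and 0 called (median -0.28, and 0.094 with the length trend removed). HDAC1, a deacetylase of the complex, had the largest fold, 206 ± 74.9 scaled RPM in sh-JMJD1C and 72.8 ± 7.77 in control-NC (SD, n = 3 each; limma-voom log2 fold change 1.42, adjusted p = 0.0550). It was called without sh-JMJD1C 1 (1.77, adjusted p = 0.00517) and without both libraries numbered 1 (1.73, adjusted p = 0.0373). The other deacetylase of the complex, HDAC2, lay on the other side of 0, with 54.7 ± 21.4 scaled RPM in sh-JMJD1C and 103 ± 30.6 in control-NC (SD, n = 3 each; limma-voom log2 fold change -0.92, adjusted p = 0.176), and was chosen after its values were seen. Of 9 PRC1.1 partners of KDM2B, 0 were called (median -0.49, and 0.066 with the length trend removed), and RNF2, a ubiquitin ligase of the complex, had the largest fold (-1.44, adjusted p = 0.165 in limma-voom). USP7, a deubiquitinase of that list also chosen after its values were seen, was called lower in sh-JMJD1C once sh-JMJD1C 1 was left out (-1.36, adjusted p = 0.0362 in limma-voom). With the replicate number as a block, limma-voom called 2 CoREST partners higher and 3 lower of the 10 tested, beside 35.9% of all genes. HDAC1 was among the higher (adjusted p = 0.00419) and HDAC2 among the lower (adjusted p = 0.0209). Of the 9 PRC1.1 partners, the block gave 2 higher and 1 lower, the latter USP7 (adjusted p = 0.0346). Of 8 genes that supply 2-oxoglutarate or iron, which JmjC enzymes need, 1 was called on reads (median 0.74). Over all genes 5.52% were called, with a median of -0.08. IDH2, the mitochondrial isocitrate dehydrogenase, rose to 48.7 ± 27.2 scaled RPM in sh-JMJD1C, against 5.43 ± 5.12 in control-NC (SD, n = 3 each; limma-voom log2 fold change 2.73, adjusted p = 0.0483). IDH2 had 0 reads in control-NC 1, and its adjusted p was 0.0540 with the length trend removed and 0.174, 0.10, 0.107 and 0.190 without sh-JMJD1C 2, sh-JMJD1C 3, control-NC 1 or control-NC 3. With the length trend removed, its cytosolic paralog IDH1 was the 1 gene of that list called, beside 3.42% of all genes. IDH1 was lower in sh-JMJD1C there (-1.65, adjusted p = 0.0347 in limma-voom). It was also called lower with both trends removed (adjusted p = 0.029), library totals (0.026), quantile normalization (0.0332) and the replicate number as a block (0.00623). On reads without these changes it was not called (-1.36, adjusted p = 0.0545 in limma-voom). The block fit also called IDH2, IDH3B, IDH3G and OGDH higher, beside 35.9% of all genes. Without sh-JMJD1C 1, IDH2, IDH3B and IDH3G were called higher (adjusted p = 0.00718, 0.00733 and 0.0322 in limma-voom), beside 19.7% of all genes.

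Other annotated genes overlap several of the 10, and the use of strand in counting is not given in the sources used here. KDM2B overlaps the 3′ end of RNF34 on the opposite strand, which had 308 reads over the 6 libraries, 68.4% as many as KDM2B. KDM4A overlaps its antisense gene KDM4A-AS1, which had 132 reads, 18.9% as many as KDM4A, with 30, 10 and 8 reads in sh-JMJD1C 1 to 3 and 6, 48 and 30 in control-NC 1 to 3. The other overlapping genes had at most 21 reads over the 6 libraries.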

How the data were processed

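The authors deposited FPKM per gene and library, per the file headers on rising shares of the reads, and the full-library column was used. Bowtie 0.12.2 and hg38 are named, with no role, in the submitters' processing notes, and neither the counting tool nor its strand setting is stated in the sources used here. Gene names and coordinates (GRCh38, GENCODE release 29) were looked up by gene ID. Whole reads were recovered as FPKM times length times library total, with the summed length of a gene's annotated transcripts where that made its values whole (93.8% of genes above 0) and otherwise the smallest whole length that did, as for KDM1A and KDM5B. Under 1000 reads, 100.0% of values came out whole to within 0.05, which that choice of length partly ensures. FPKM were scaled by median-ratio factors (from genes averaging 1 FPKM or more), and genes averaging 0.5 FPKM or more were fitted as log2(scaled FPKM + 0.5) with limma 3.58.1 in R 4.3.3 (trend option, group alone, two-sided, Benjamini-Hochberg at 0.05). Recovered reads of genes with at least 60 reads were fitted with limma-voom, with scaling factors from genes averaging 20 reads or more, and in a further version a lowess trend (span 0.3) over the longest transcript's length, or that and GC content, was removed. Both fits, without trend removal, were run on simulated reads with a shared expression profile, the same dispersion for every gene and known folds. Those reads lacked the makeup differences of these libraries, so that run does not show how the fits perform here. Fold changes on log2(value + 0.5) understate those of low genes. Exact binomial (Clopper-Pearson) intervals at 95% and the floor of 3 reads cover counting error only. Named beside the 10 genes were JMJD1C, list genes past 0.05 in either fit or else the one of largest fold on reads per list, and the 3 genes most like the demethylase of largest fold. The members, lists and the fit on reads were chosen with earlier results of these data known.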

Additional observations from a re-analysis of the deposited data

How the results depend on the processing

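In all 31 fits 0 of the demethylases were called, while the share called over all genes ran from 0 in 10 fits to 35.9%. In 7 of the 31 fits, 1 to 3 demethylases had an unadjusted p under 0.05. The fit with 3 was limma-voom with the length trend removed, where 3106 of all 11848 genes had such a p. These counts were not tested against the shares over all genes. The log2 fold changes of KDM1A, KDM4B and KDM4C kept their sign in every fit. Signs turned for KDM2A (quantile normalization 0.029, length trend removed 0.42, length and GC trends removed 0.21), KDM2B (FPKM as deposited -0.060, library totals -0.14), KDM4A (FPKM as deposited -0.24, quantile normalization -0.13 on FPKM and -0.082 on reads, library totals -0.32, without both libraries numbered 1 -0.31 on FPKM and -0.17 on reads), KDM5B (length trend removed 0.51, length and GC trends removed 0.80), KDM5C (without both libraries numbered 1, -0.00091), KDM6B (the same, -0.14) and PHF8 (quantile normalization 0.10, length trend removed 0.26), and the cause was not tested.

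Leaving out 1 library at a time gave log2 fold changes on FPKM from 0.48 to 0.67 for KDM1A, -0.52 to 0.054 for KDM2A, 0.070 to 0.24 for KDM2B, -0.17 to 0.24 for KDM4A, 0.27 to 0.60 for KDM4B, -0.65 to -0.32 for KDM4C, -0.66 to 0.12 for KDM5B, 0.12 to 0.59 for KDM5C, -0.10 to 0.65 for KDM6B and -0.38 to 0.0084 for PHF8. On reads the ranges were 0.56 to 0.74 for KDM1A, -0.60 to 0.068 for KDM2A, 0.062 to 0.40 for KDM2B, -0.093 to 0.28 for KDM4A, 0.48 to 0.76 for KDM4B, -0.95 to -0.33 for KDM4C, -0.80 to 0.15 for KDM5B, 0.24 to 0.69 for KDM5C, -0.24 to 1.03 for KDM6B and -0.46 to 0.022 for PHF8. The difference in the KDM1A/KDM6B log2 ratio ranged from -0.17 to 0.67 and that of KDM4B/KDM4C from 0.67 to 1.24.

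The count of genes called by limma on FPKM, 34, was 84 and 0 with pseudocounts of 0.1 and 1, 0 with a mean FPKM of at least 0.1 or no filter, 79 for FPKM as deposited, 2 after quantile normalization, 911 over protein-coding genes only and 0 without both libraries numbered 1. It was 0 to 475 when a library was left out. On reads it was 654, 405 and 809 with the length trend and with both trends removed, 1194 with library totals, and 31 to 2329 when a library was left out. The 10 fits that called 0 genes had 2012 to 4406 genes at an unadjusted p under 0.05 in limma. JMJD1C was at -1.82 on FPKM (-2.05 to -1.53 with a library left out, and past the threshold over protein-coding genes only, -1.82) and on reads at -2.50 (-2.92 to -1.92), -1.75 with the length trend removed and, not past the threshold, -1.20 with both trends removed; 4 of the 6 fits on reads with a library left out did not pass it either (adjusted p = 0.0633 to 0.118 in limma-voom).

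The labels give a replicate number but not whether libraries of the same number were handled together. Deviations of same-numbered libraries from their group means correlated at 0.009, 0.14 and 0.22 across genes, for numbers 1 to 3. The libraries numbered 2 and 3 correlated best with their own number from both groups, and those numbered 1 did not. Whether the numbers mark a pairing cannot be told from this. With the replicate number as a block, limma called 0 genes on FPKM (4406 had an unadjusted p under 0.05), limma-voom called 4252 on reads, and 0 of the 10 demethylases were called in either, the lowest adjusted p being 0.0716 for KDM1A on reads, where 35.9% of all genes were called. Control-NC 1, with 10 to 49 reads per demethylase, limits the depth.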
